A study of Gallus gallus with 31 samples.

Results

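Proteins that a cell secretes or places in its membranes enter the endoplasmic reticulum (ER) through the SEC61 channel, are folded there with the help of chaperones and disulfide isomerases, and leave for the Golgi in COPII-coated vesicles, while COPI-coated vesicles and KDEL receptors bring escaped ER proteins back. The cytosol and the mitochondria have chaperones of their own. In the anterior pituitary, whose cells make large amounts of peptide and glycoprotein hormones, every hormone passes through the first of these routes. The genes described here are those of chaperones and of the early secretory pathway, taken as the array spots whose platform gene symbol begins with HSP, DNAJ, CCT and a digit, PDIA, SEC, SSR and a digit, SPCS, ERP, KDELR, COPA, COPB, COPE, COPG, COPZ or TMED, or is CALR, CANX, CLU or USO1. The symbols fitted 164 of the 19200 printed spots, and 150 spots of 84 genes were measured on 16 or more of the 31 arrays. All 150 were among the 17193 spots tested. No spot of the platform table carried CALR or USO1. The study, under its own naming of the spots, reports CALR as higher in HG, and that result is not examined here. The study also reports HSPA5 as higher in HG and counts CLU among its differentially expressed genes.

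The birds were male meat-type chickens of 2 lines selected on body weight, HG for high growth and LG for low growth. Anterior pituitaries were taken 1, 3, 5 and 7 weeks after hatch, from 4 birds per line and age except HG at week 1 (3 birds), and each was hybridised to its own spotted cDNA array. The lines were kept apart through week 3 and together afterwards, so line and early rearing cannot be told apart. Each value is a log2 ratio of the bird (Cy3) to a pool of all samples (Cy5), so levels of different spots cannot be set against each other, and a difference is given as log2 HG minus log2 LG with its standard error (SE). In whole tissue, fewer cells of a type and less RNA per cell cannot be told apart. The arrays held 14786 to 18342 spots not flagged, and the header of the file of HG week 1 replicate 1 names week 3, while its label gives week 1.

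The members fell into 40 spots of the ER itself, 44 of transport between ER and Golgi, 42 of the cytosol, 12 of the mitochondria and 12 others. The others were 3 spots of clusterin (CLU), a secreted chaperone, 3 of the lipid-binding proteins SEC14L1 and SEC14L2, 1 of SECISBP2, a factor for selenocysteine incorporation, 4 of HSPG, which had no match in RefSeq, and 1 of DNAJC22, which the compartment lists did not place. The 14 spots left out were present on 7 to 15 arrays and lay at 1.7 to 14.4 times background in Cy3. Just inside the minimum, the sparsest spots of ERP44, HSPA8 and SEC61G were present on 17 arrays, and just outside it 4 spots, of CCT5, DNAJC25, HSPA9 and TMED3, on 15.

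Averaged over the 4 ages, 3 member spots were higher and 1 was lower in HG at an adjusted p below 0.05, the threshold used throughout (limma, Benjamini-Hochberg over all tested spots). Over all spots 0.174% were called higher in HG and 0.163% higher in LG. Without HG week 1 replicate 1, the array whose file header names another week than its label, none of the 4 passed (adjusted p = 0.0519 to 0.106), and without HG week 1 replicate 2 only the CLU spot did. The 3 higher spots were 1 of HSPA5, the main Hsp70 chaperone of the ER lumen (BiP), 1 of CLU, and 1 that the platform names DNAJB5, a cytosolic cochaperone. The lower spot was 1 of HSPD1, the mitochondrial Hsp60. Without adjustment, at p below 0.05, 10 member spots were higher in HG and 3 in LG, against 3.58% and 3.66% of all spots. On the ER side, which joins the ER and the transport spots, these counts were 6 and 1 of 84, and in the cytosol and mitochondria together 2 and 1 of 54. The median line difference was 0.05 on the ER side, with 59 of 84 spots above 0, and -0.02 in the cytosol and mitochondria, with 25 of 54. Over all tested spots it was 0.00, with 50.3% above 0. Taken within each bird, the ER-side median had a pooled SD between birds of one group of 0.05, and that of the cytosol and mitochondria of 0.04. No test was made of a class median.

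**Figure D1:**
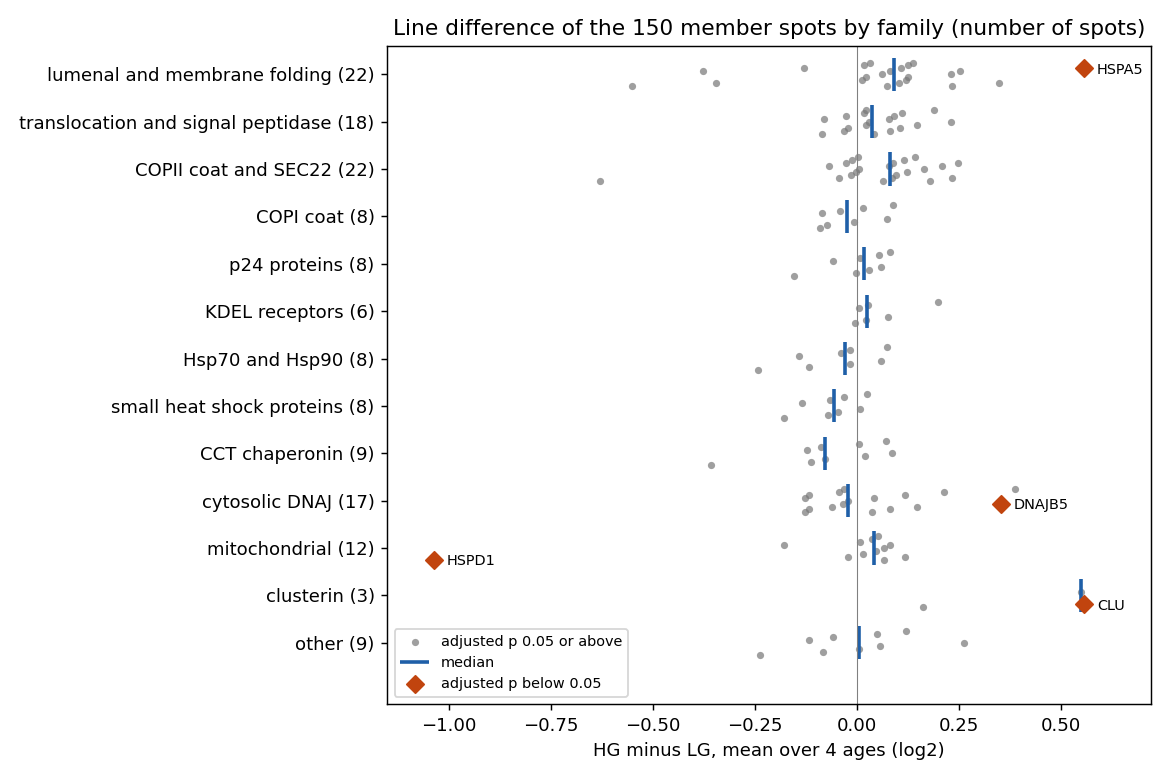
Line difference (HG minus LG, log2, mean over the 4 ages) of each of the 150 member spots on the x axis, by family on the y axis with the number of spots, with blue bars for family medians and diamonds for the spots below an adjusted p of 0.05. Most spots lay near 0, with HSPA5, CLU and DNAJB5 to the right and 1 HSPD1 spot at -1.04 on the left.

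HSPA5 had the smallest line p of the ER members. At week 1 its spot 11.9.5 (print position on the array) measured -0.16, 0.05 and -0.67 in the HG birds and -0.94, -0.46, 0.17 and -0.56 in the LG birds, and the lines overlapped. At week 3 the values were 0.33, 0.33, 0.63 and 0.34 in the HG birds and -0.29, -0.79, -0.21 and -0.34 in the LG birds, with every HG bird above every LG bird. At week 5 they were -0.21, 0.78, 0.55 and 0.17 in the HG birds and -0.53, -0.35, -0.02 and 0.23 in the LG birds, with 2 HG birds inside the LG range. At week 7 they were 0.12, 0.45, 0.26 and 0.16 in the HG birds and -0.63, -0.43, -0.73 and -0.17 in the LG birds, again without overlap. The difference was 0.19, 0.81, 0.49 and 0.73 at weeks 1, 3, 5 and 7, and its mean over the ages was 0.56 (SE 0.11, 1.47-fold, limma adjusted p = 0.0191). The unadjusted limma p for these ages, in the same order, was 0.441, 0.00102, 0.0355 and 0.00258, and none passed after adjustment. The line-by-age interaction had an unadjusted p of 0.237, and did not pass. Without HG week 1 replicate 1 or replicate 2 the adjusted p of the line difference was 0.0519 and 0.0568. With the deposited log2 ratios the week 7 difference was 0.97 at an adjusted p of 0.0221.

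The second HSPA5 spot, 22.3.3, was present on 26 arrays, 77.2 times over background, against 34.3 times and 31 arrays for spot 11.9.5. Its differences were 0.00, 0.30, 0.34 and 0.38 at weeks 1, 3, 5 and 7, and their mean was 0.25 (SE 0.10, adjusted p = 0.456, unadjusted p = 0.0176). Both spots thus had their smallest difference at week 1. On the second spot only HG replicates 1 and 3 had values at weeks 3 and 5. They read 0.10 and 0.39 at week 3, and -0.16 and 0.40 at week 5. LG week 5 replicate 4 had no value on that spot either. At week 7 the second spot read 0.03, 0.22, 0.30 and 0.24 in the HG birds and -0.36, -0.11, -0.32 and 0.07 in the LG birds, with 1 LG bird inside the HG range.

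HSP90B1 (GRP94), the Hsp90 of the ER lumen, had differences of -0.13, 0.35, 0.63 and 0.55 at weeks 1, 3, 5 and 7, with a mean of 0.35 (SE 0.15, adjusted p = 0.528). At week 7 its spot read 0.07, -0.19, 0.44 and 0.08 in the HG birds and -0.45, -0.37, -0.42 and -0.56 in the LG birds, and the lines did not overlap. At week 1 they overlapped, with -0.03 ± 0.68 (SD, n = 3) in HG and 0.11 ± 0.50 (SD, n = 4) in LG. PDIA3, a disulfide isomerase that works with calnexin on glycoproteins, had 3 spots with line differences of 0.23, 0.11 and 0.10. The first of them read -0.03, 0.16, 0.36 and 0.45 at weeks 1, 3, 5 and 7. At week 5 it measured 0.93 in HG replicate 2, and -0.31, 0.39 and 0.15 in the other HG birds. The LG birds of week 5 measured -0.33, -0.29, 0.14 and 0.21. At week 7 that spot measured 0.51, 0.31, 0.62 and 0.38 in the HG birds and -0.20, -0.29, 0.24 and 0.28 in the LG birds, without overlap. Calnexin itself (CANX), a lectin chaperone of the ER membrane, differed by 0.08 (SE 0.08), with -0.14 at week 1 and 0.29 at week 7. None of these passed the adjusted threshold.

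Among birds of the same group, values of HSPA5 spot 11.9.5 were set against 4 other spots, and the 2 HSPD1 spots against each other, as deviations from the group means with birds permuted within groups (100000 permutations, two-sided, 5 relations). With HSP90B1 Pearson's r was 0.50 over 30 birds (permutation p = 0.0206, adjusted 0.103) and Spearman's rho 0.48 (permutation p = 0.0225, adjusted 0.0563), and r was 0.47 without the 2 birds farthest from the median. With PDIA3 spot 12.1.3 r was 0.42 and rho 0.50 over 31 birds (permutation p = 0.0826 and 0.0211, adjusted 0.147 and 0.0563), and r without the 2 farthest birds was 0.41. Within the birds of 1 replicate number, r ran from -0.81 to 0.82 for PDIA3, so its sign was not the same in all, and from 0.38 to 0.67 for HSP90B1. With the second HSPA5 spot r was 0.46 and rho 0.49 over 26 birds (permutation p = 0.0881 and 0.0726, adjusted 0.147 and 0.121), and 0.67 without the 2 farthest. With CLU spot 20.8.17 r was -0.06 and rho -0.07 (permutation p = 0.798 and 0.77, adjusted 0.798 and 0.77), with -0.12 after leaving out 2 birds. By replicate number r ran from 0.17 to 0.83 for the second HSPA5 spot and from -0.57 to 0.69 for CLU. The permutations did not keep birds of a number together. No relation passed after adjustment, and the spots of a bird share its array.

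**Figure D2:**
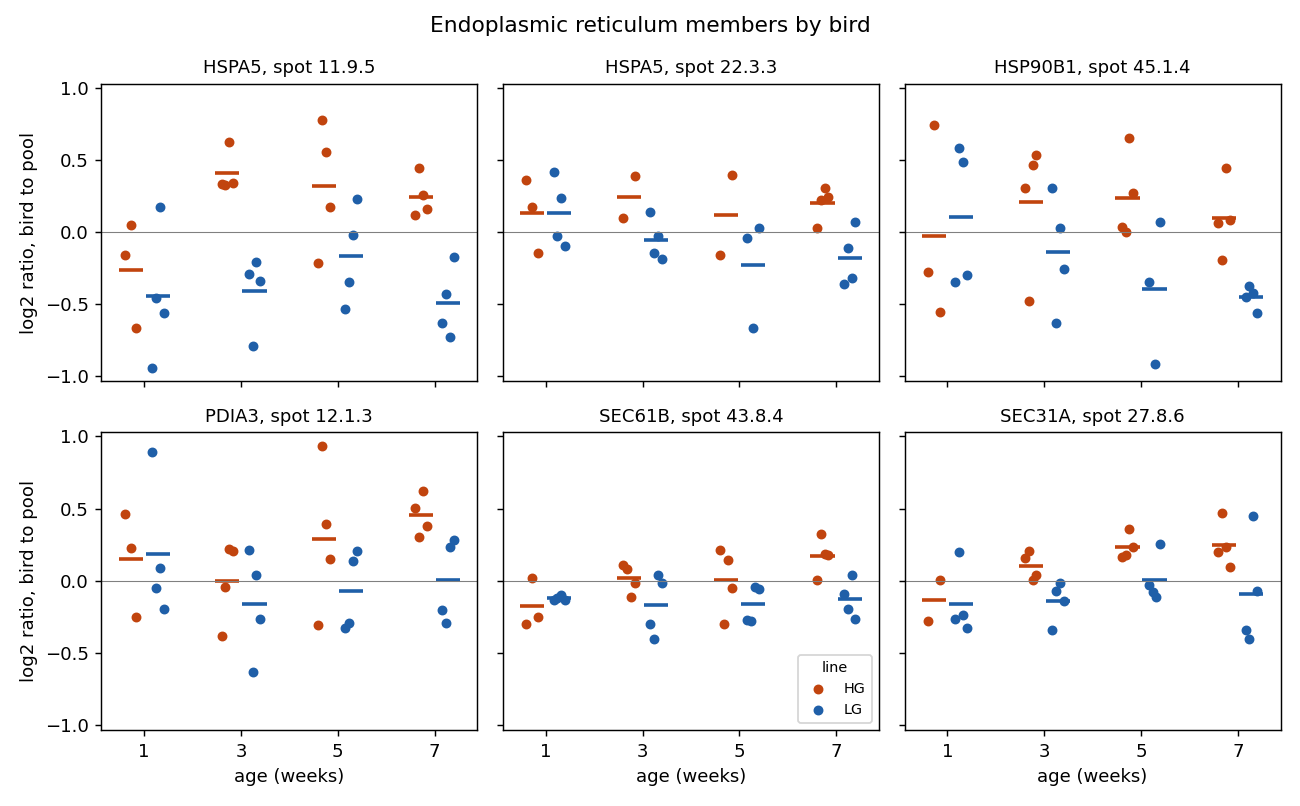
Log2 ratio of each bird to the pool (y axis) by age in weeks (x axis) for 6 ER-side spots, with points for birds, bars for group means, and colours for HG and LG. At week 7 all 4 HG birds lay above all 4 LG birds on HSPA5 spot 11.9.5, HSP90B1 and PDIA3, while at week 1 the lines overlapped on each of the 6 spots. The share of all tested spots without overlap is not given, so this describes the birds and is not a test. No member passed for the line-by-age interaction. Shown are both HSPA5 spots and, for the other genes, the spot with the smallest line p.

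The folding family of the ER lumen and membrane counted 22 spots of 13 genes, with a median line difference of 0.09 and 18 spots above 0. Its medians were 0.00, 0.10, 0.09 and 0.11 at weeks 1, 3, 5 and 7. The 4 spots below 0 were 1 each of DNAJC16, ERP44, HSPA13 (-0.34) and PDIA5 (-0.13). The HSPA13 spot read 3.95 in LG week 1 replicate 3, and 0.33, -0.14 and -0.34 in the other LG birds of that week. Its difference at week 1 was -0.77. DNAJC16 is an ER membrane protein with a J domain, and its spot 20.19.16 differed by -0.38 (SE 0.13, adjusted p = 0.341) while its other spot read 0.12. ERP44, a thioredoxin-like protein that retains clients in the early secretory pathway, read -0.55 on a spot present on 17 arrays at 1.73 times background, with -1.22 at week 3 (unadjusted p = 0.0319). The brighter ERP44 spot read 0.13. At week 3 the LG mean of the dimmer spot, 34.17.10, rested on 2 birds, 2.66 and 0.44. The line difference of the dimmer spot was -0.27 without LG week 3 replicate 1 and -0.83 without replicate 2. ERP29, another thioredoxin-like lumenal protein, had spots at 0.23 and 0.12, both under 2 times background. At week 5 the former read -0.09, 1.40, 0.13 and 0.02 in the HG birds and -0.33, -0.52, -0.14 and -0.32 in the LG birds, so that 1 bird, HG week 5 replicate 2, lay far above the rest, and the line difference was 0.14 without it.

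Translocation into the ER was covered by 18 spots of 10 genes, with a median of 0.04 and 13 above 0. SEC61B, a small subunit of the SEC61 channel, differed by 0.11 on one spot and by 0.15 (SE 0.06, adjusted p = 0.522) on the other, with -0.06 at week 1 and 0.30 at week 7. SSR1, a subunit of the translocon-associated complex, had 3 spots at 0.23, 0.11 and -0.02, and SPCS2, a subunit of the signal peptidase, read 0.04 with 0.27 at week 1. The line differences of this family ran from -0.08 to 0.23, and none passed.

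The COPII coat, which buds vesicles from the ER, and the SNARE proteins of the SEC22 type were covered by 22 spots of 11 genes with a median of 0.08. SEC31A, of the outer COPII cage, differed on spot 27.8.6 by 0.21 (SE 0.08, adjusted p = 0.439), with 0.02, 0.24, 0.23 and 0.34 at weeks 1, 3, 5 and 7. At week 3 this spot read 0.16, 0.21, 0.01 and 0.04 in the HG birds and -0.34, -0.07, -0.01 and -0.14 in the LG birds, without overlap, and at week 7 0.20, 0.47, 0.23 and 0.09 in the HG birds and -0.34, -0.40, 0.45 and -0.07 in the LG birds, with 1 LG bird inside the HG range. With the deposited log2 ratios its line difference passed (0.27, adjusted p = 0.0404), as did that at week 7 (0.55, adjusted p = 0.0443). The other SEC31A spots, at 2.05 and 18.8 times background, read 0.25 and 0.14, and the first of them read 1.53 in HG week 5 replicate 2, above all its other birds. SEC22B read 0.23 and 0.09, and SEC31B 0.12, 0.00, -0.01 and 0.00. SEC13, also of the outer cage, had a dim spot on 21 arrays, with 1 HG bird at each of weeks 1 and 5, at -0.63 (SE 0.42) and a bright one at 0.06. SEC24B, a cargo-binding subunit, had the smallest interaction p of the members (unadjusted 0.00706, adjusted 1), with 0.83, -0.50, 0.53 and -0.14 at weeks 1, 3, 5 and 7 on a spot 1.8 times over background, where HG week 5 replicate 2 read 1.22 and the other HG birds of that week at most 0.44.

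The COPI coat (8 spots) had a median of -0.02, with COPE at 0.09 and 0.02 and COPG2 at -0.09 and -0.08, the former with -0.39 at week 7. The p24 cargo receptors (TMED, 8 spots) had a median of 0.02 and a range of -0.15 to 0.08. The KDEL receptors (6 spots) had a median of 0.03. One KDELR2 spot, 20.15.8, differed by 0.20 (SE 0.07, adjusted p = 0.388) with similar values at every age, from 0.14 to 0.25. It lay 2.65 times over background, and the other 3 KDELR2 spots, each at least 12.1 times over it, read 0.03, 0.00 and 0.00.

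Of the 84 genes tested, 44 had more than 1 spot, and in 18 of these the line differences of the spots had both signs. The range between spots of a gene had a median of 0.11. HSPD1, SEC13 and ERP44 had the widest ranges, each between a spot under 3 times background and a brighter one.

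At the single ages, no member spot passed the adjusted threshold at any age. Over all tested spots the shares called, in either direction and in the order of the ages, were 0.0116%, 0.00582%, 0.0407% and 0.0407%. At week 1, 1 and 0 of the 84 ER-side spots and 2 and 2 of the 54 cytosolic or mitochondrial spots were higher in HG and in LG at an unadjusted limma p below 0.05, against 1.83% and 1.43% of all spots. At week 3, 3 and 1 of the 84 ER-side spots and 1 and 1 of the 54 cytosolic or mitochondrial spots were higher in HG and in LG at an unadjusted limma p below 0.05, against 2.08% and 2.18% of all spots. At week 5, 5 and 1 of the 84 ER-side spots and 1 and 2 of the 54 cytosolic or mitochondrial spots were higher in HG and in LG at an unadjusted limma p below 0.05, against 2.49% and 3% of all spots. At week 7, 4 and 2 of the 84 ER-side spots and 1 and 1 of the 54 cytosolic or mitochondrial spots were higher in HG and in LG at an unadjusted limma p below 0.05, against 2.3% and 2.82% of all spots. The ER-side median was 0.02, 0.05, 0.06 and 0.05 at weeks 1, 3, 5 and 7, and that of the cytosol and mitochondria 0.04, 0.00, -0.04 and -0.02. Leaving out single birds moved the ER-side median to between 7.5e-05 (without HG week 1 replicate 2) and 0.04 (without HG week 1 replicate 4) at week 1, and to between 0.04 (without HG week 5 replicate 2) and 0.09 (without LG week 5 replicate 4) at week 5. Taken within each bird and then averaged, the ER-side median was 0.01 in HG and -0.04 in LG at week 1, and 0.04 and -0.05 at week 7. For the cytosol and mitochondria these means were 0.02 and 0.00 at week 1, and -0.01 and 0.06 at week 7. The order of the classes at week 1 therefore turned with the way the median was taken. At week 7 the ER-side medians of the birds lay between 0.01 and 0.09 for HG and between -0.08 and -0.01 for LG, without overlap, and HG week 5 replicate 2 had the highest ER-side median of the 31 birds, 0.15. No test was made between these medians. No member passed for the line-by-age interaction (0.0116% of all spots did), and 1 of 150 had an unadjusted p below 0.05, against 2.68%.

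**Figure D3:**
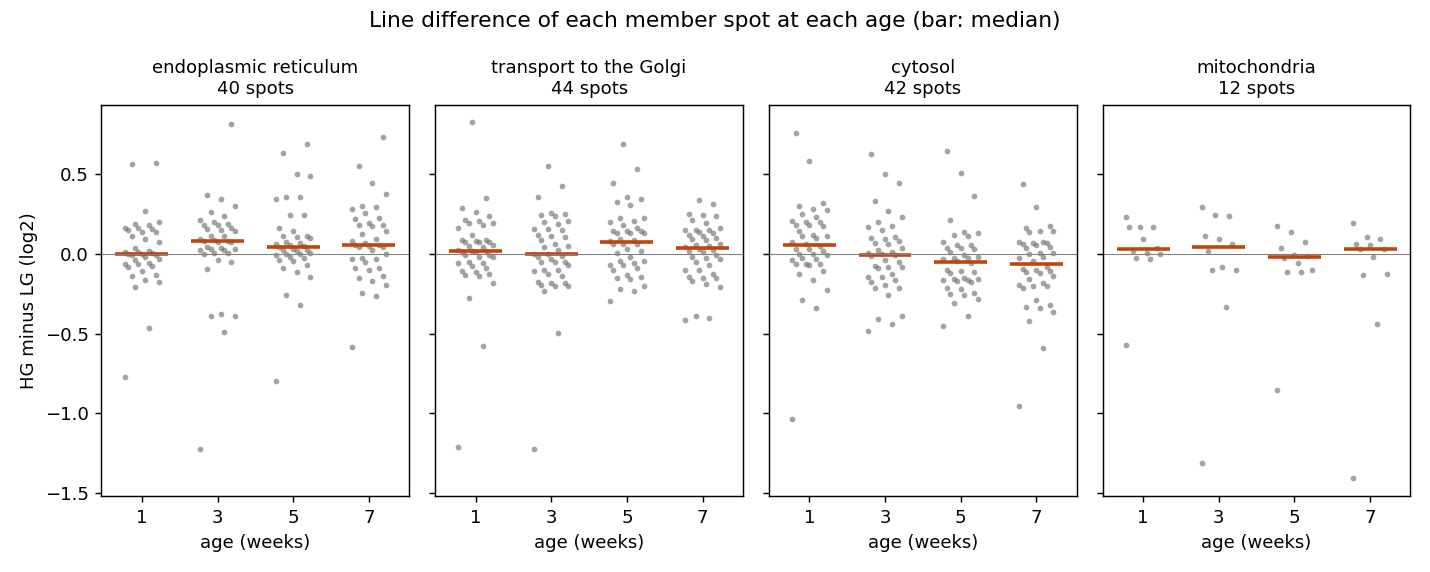
Line difference (HG minus LG, log2, y axis) of each member spot at each age in weeks (x axis), with 1 point per spot, in panels for the ER, ER-to-Golgi transport, the cytosol and the mitochondria, and bars for the medians. The bars stay near 0, and the cytosolic bar is 0.06 at week 1 and -0.06 at week 7.

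The mean CLU value was higher in HG than in LG at each age on each of its 3 spots, and 1 spot passed the threshold over the ages. Spot 20.8.17 read 0.12, -0.19 and -0.34 in the HG birds and -0.59, -1.17, -0.09 and -0.65 in the LG birds at week 1, with 1 LG bird inside the HG range. At week 3 it read 0.55, 0.08, 0.24 and 0.18 in the HG birds and -0.49, -0.14, -0.32 and -0.40 in the LG birds, without overlap. At weeks 5 and 7 the HG values ran from -0.29 to 0.58 and from -0.26 to 0.54, and the LG values from -0.88 to -0.08 and from -0.96 to -0.16, with overlap at both ages. The difference was 0.49, 0.60, 0.53 and 0.61 at weeks 1, 3, 5 and 7, with a mean of 0.56 (SE 0.12, 1.47-fold, limma adjusted p = 0.0239). Its interaction p was 0.979 (limma, unadjusted). Without HG week 1 replicate 1 the adjusted p was 0.0619.

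The other CLU spots gave 0.55 (SE 0.19, adjusted p = 0.326) and 0.16 (SE 0.09, adjusted p = 0.754). The former lay 1.58 times over background and held single HG birds at 1.48 in week 1 and 1.73 in week 3, each above all other birds of its age. The latter lay 5.18 times over background, close to the 4.92 of spot 20.8.17, with a difference smaller than that spot's.

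HSPD1 was the only called member with lower values in HG. Spot 24.3.15 read -0.93, -1.04 and 1.07 in the HG birds and 0.52, 1.57, -1.03 and 0.03 in the LG birds at week 1, with the lines mixed. At week 3 it read -1.09, 0.25, -0.57 and -1.27 in the HG birds and 0.64, 0.75, 0.13 and 1.04 in the LG birds, with 1 HG bird inside the LG range. At week 5 it read -0.72, 0.13, -1.43 and 0.08 in the HG birds and 0.69, -0.03, 0.69 and 0.13 in the LG birds, with overlap, and at week 7 -0.99, -0.92, -1.21 and -0.58 in the HG birds and 0.55, 0.90, 0.07 and 0.41 in the LG birds, without. The differences were -0.57, -1.31, -0.85 and -1.41 at weeks 1, 3, 5 and 7, and their mean was -1.04 (SE 0.23, 2.05-fold lower, limma adjusted p = 0.0467). The spot was 2.65 times over background, and the deposited table gave a value on 21 of the 31 arrays, where the difference was -0.48 at an adjusted p of 0.496. The call was also lost on leaving out any 1 of 23 birds, with an adjusted p of 0.0544 to 0.117. The other HSPD1 spot, 19.7.12, lay 10.5 times over background and differed by 0.04 (SE 0.06, adjusted p = 0.984), with all 31 birds between -0.44 and 0.26. Between the 2 spots r was 0.23 and rho 0.20 over 31 birds (permutation p = 0.214 and 0.351, adjusted 0.268 and 0.438), with 0.17 after leaving out the 2 farthest birds. HSPE1, the Hsp10 that caps the Hsp60 chamber, read -0.02, 0.05 and 0.01 on its 3 spots, and HSPA9, the mitochondrial Hsp70, 0.12, 0.07 and 0.05. DNAJC11 read 0.07 and 0.08, and DNAJC30 -0.18, both mitochondrial proteins with J domains. Apart from spot 24.3.15 no mitochondrial spot lay outside -0.18 to 0.12.

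**Figure D4:**
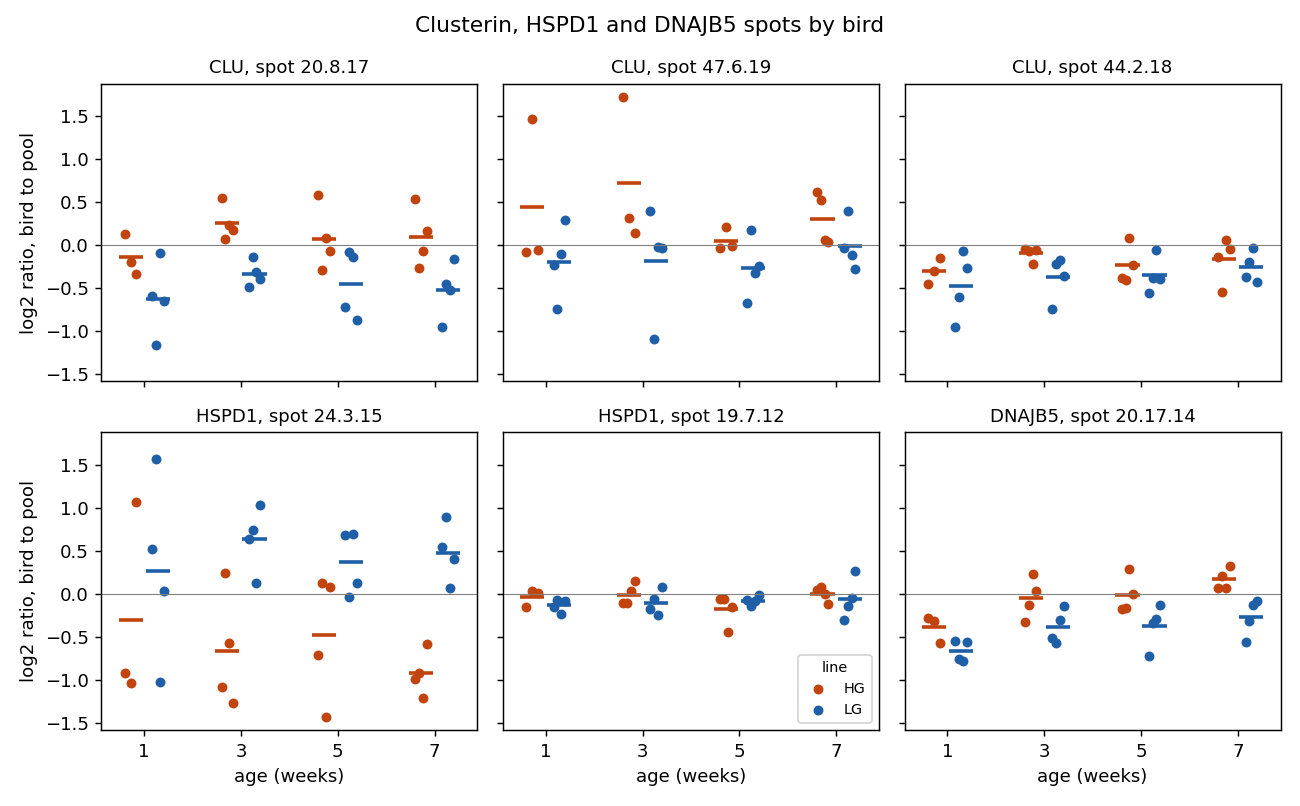
Log2 ratio of each bird to the pool (y axis) by age in weeks (x axis) for 3 CLU spots, 2 HSPD1 spots and 1 DNAJB5 spot, with points for birds, bars for group means and colours for the lines. The HSPD1 spots differ, with line differences of -1.04 for spot 24.3.15 and 0.04 for spot 19.7.12.

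In the cytosol the called spot was 20.17.14, DNAJB5 by the platform, although the study's own list names it PRB3, so its gene is not settled. It read -0.28, -0.32 and -0.57 in the HG birds and -0.55, -0.75, -0.79 and -0.57 in the LG birds at week 1, where the lowest HG bird lay among the LG birds. At week 7 it read 0.07, 0.21, 0.07 and 0.33 in the HG birds and -0.56, -0.31, -0.12 and -0.08 in the LG birds, and every HG bird was above every LG bird. The differences were 0.28, 0.33, 0.36 and 0.44 at weeks 1, 3, 5 and 7, with a mean of 0.35 (SE 0.07, limma adjusted p = 0.0295), and the call was lost on leaving out HG week 1 replicate 1 or 2, LG week 1 replicate 2, HG week 3 replicate 4, LG week 3 replicate 1 or 2, HG week 7 replicate 4 or LG week 7 replicate 1, with an adjusted p of 0.0528 to 0.0681. Spots 28.4.20 and 4.16.17, also DNAJB5 by the platform, read 0.04 and 0.08. Spot 6.15.9, which the platform names DNAJA1 and the study DNAJA4, both Hsp40 cochaperones, differed by 0.39 (SE 0.14, adjusted p = 0.37), with its largest difference at week 1 (0.76) and its smallest at week 7 (0.14). The other DNAJA1 spot read -0.03. DNAJB2 read 0.21 on the spot present on all arrays. Its other spot, on 20 arrays, read 0.15, and at week 1 it had 0.71 and 0.61 in 2 HG birds and 0.07 in the only LG bird measured.

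The cytosolic Hsp70 and Hsp90 spots (8) had a median of -0.03. HSPA8, the constitutive Hsp70, read 0.06 on the spot present on all arrays (SE 0.07), and 0.07 and -0.02 on spots present on 17 and 20 arrays, each with a single bird in 1 of the week 1 groups. HSP90AA1 read -0.12 (SE 0.12). The CCT chaperonin, which folds actin and tubulin, had a median of -0.08 over 9 spots, with CCT8 at -0.11 (SE 0.06, unadjusted p = 0.0531). The small heat shock proteins had -0.06 over 8, with the 4 spots of HSPB8 at -0.13, -0.07, -0.07 and -0.18, and the cytosolic DNAJ family -0.02 over 17. At week 7 all 8 cytosolic Hsp70 and Hsp90 spots, of 4 genes, were below 0, with a median of -0.25, and none passed. Over all tested spots 49.7% were above 0 at that age. LG week 7 replicate 4 read 1.30, 0.59 and 0.73 on HSPA2 spots 3.7.9, 30.2.14 and 33.7.9 and 0.72 on HSP90AA1, above the other LG birds. LG week 7 replicate 2 read 1.65 on HSPA4 and 2.47 on HSPA8 spot 26.1.13, where the other LG birds read at most 0.16 and 0.20.

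Of the remaining members, SEC14L2 read -0.24 (SE 0.11, unadjusted p = 0.0384) and -0.12, SEC14L1 -0.06, SECISBP2 0.06 and DNAJC22 0.12. The 4 HSPG spots read 0.26, 0.01, -0.08 and 0.05. None passed.

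For age, 1 of 150 member spots passed the adjusted threshold, against 0.582% of all spots. At an unadjusted p below 0.05 there were 9 of 150, against 8.47%, so neither count stood out from the array. HSPA2, a cytosolic Hsp70, was lowest at week 1 on spot 33.7.9. At week 1 it read -0.61, -0.20 and -0.51 in the HG birds and -0.59, -0.04, 0.23 and 0.00 in the LG birds, and at week 7 0.06, 0.29, 0.37 and 0.20 in the HG birds and 0.23, 0.22, 0.19 and 0.73 in the LG birds. Week 7 minus week 1, averaged over the lines, was 0.56 (limma adjusted p over the ages = 0.0423), and the line difference was -0.14 (SE 0.08). The call was lost on leaving out any 1 of 21 of the 31 birds. Spot 3.7.9 gave 0.54 between weeks 1 and 7 (unadjusted p over the ages = 0.0324) and spot 30.2.14 0.17 (unadjusted p = 0.357). HSPA5 spot 11.9.5 had a week 7 minus week 1 value of 0.23 (adjusted p = 0.628).

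**Figure D5:**
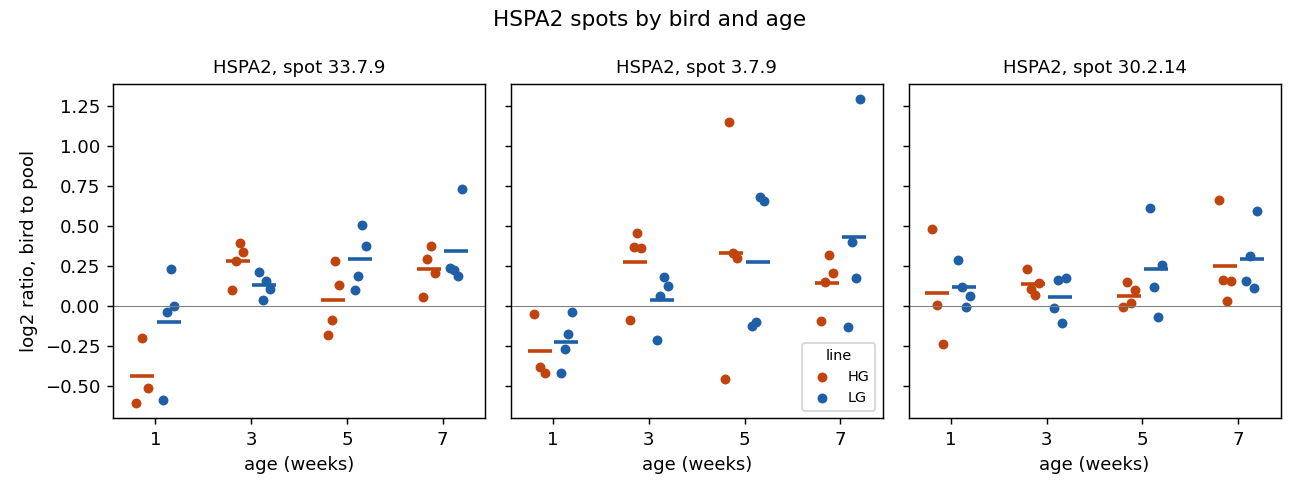
Log2 ratio of each bird to the pool (y axis) by age in weeks (x axis) for the 3 HSPA2 spots, with points for birds, bars for group means and colours for the lines. On spot 33.7.9 all week 1 birds but 1 LG bird lay at or below 0.00, and all 8 birds at week 7 lay above 0.

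Further genes of the same pathways were read from lists. Of 12 regulators of the unfolded protein and heat shock responses 5 were tested on 9 spots, of 34 genes of ER folding, glycosylation and degradation 23 on 39 spots, of 15 transport genes 10 on 20 spots, and of 23 cytosolic and mitochondrial partners 12 on 102 spots, 88 of which carry the symbol STUB1. None of these spots passed for the line difference in either direction. The medians were 0.01, 0.02, 0.00 and -0.01, against 0.00 over all spots. At an unadjusted limma p below 0.05, 1, 1, 0 and 2 spots of these lists were higher in HG. In LG 0, 1, 2 and 4 were higher, against 3.58% and 3.66% of all spots. HYOU1, an ER chaperone of the Hsp110 type that acts with BiP, read 0.24 on 1 spot (unadjusted p = 0.00751) and 0.04 and 0.00 on the others. On the first of these the differences were -0.07, 0.27, 0.08 and 0.67 at weeks 1, 3, 5 and 7. The week 7 difference had a limma unadjusted p of 0.000264 and an adjusted p of 0.188. The other HYOU1 spots read 0.01 and 0.10 at week 7. P4HB, a disulfide isomerase, read 0.09 on both of its spots. ERN1 (IRE1), the sensor kinase of the unfolded protein response, read 0.14 (unadjusted p = 0.0207), and XBP1, the factor whose mRNA it splices, 0.13 and -0.10. HERPUD1, of ER-associated degradation, read -0.27 (unadjusted p = 0.0158) and 0.01. From the transport list, ARF1 spot 34.2.15 read -0.21 (limma unadjusted p = 0.0249) and SURF4 spot 28.17.4 -0.12 (limma unadjusted p = 0.0365). ARF1 spot 22.9.8 read -0.04 and SURF4 spot 24.14.19 0.05. Single partner genes are not named here.

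Markers of the cells that could carry these genes were read beside them. Of 11 genes of hormone cells 7 were tested on 9 spots, and 2 were higher in HG, FSHB by 1.15 (adjusted p = 0.0114) and TSHB by 0.86 (adjusted p = 0.00148), the beta subunits of follicle-stimulating and thyroid-stimulating hormone. The mean over the 9 spots, FSHB and TSHB among them, ran from -0.31 to 0.13 among HG birds and from -0.80 to -0.05 among LG birds. The median line difference of the 9 spots was 0.11, with 8 above 0. GH, POMC, PRL, CGA and POU1F1 did not pass. Of 13 genes of B and plasma cells, which are rich in ER, 3 were tested, and JCHAIN, the joining chain of antibodies, differed by -2.10 between HG and LG at week 7 (adjusted p = 0.024). The mean over the 3 spots, JCHAIN among them, was -0.54 to -0.10 in HG and 0.23 to 0.48 in LG at that age. The median difference of the 3 spots was only -0.08, so the list did not move as a whole. The lists of erythrocytes, T cells, macrophages and granulocytes, posterior pituitary and glia, matrix and fibroblasts, and skeletal muscle had no spot past the threshold for line. Their part in the results was not tested.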

How the data were processed

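Anterior pituitary RNA of 31 birds was amplified and hybridised with a Cy5 reference pool, without dye swap. The authors measured the images in Spotfinder 2.2.4 (spot sizes 3 to 25), which gave the deposited intensity of each spot and of its local background in both channels. They then ran MIDAS 2.18 (signal-to-noise threshold 3.0, lowess by print block with smoothing 0.33), and the log2 ratios deposited from it cover 5606 to 12661 spots per array. For the values given here, normexp (offset 50) removed the background, and loess was run on the log2 ratios array by array, leaving out spots without a good flag. A spot needed values on 16 arrays and in all 8 groups. limma 3.58.1 (R 4.3.3) was fitted to the 8 group means, and p-values were adjusted by Benjamini-Hochberg over 17193 spots. The fit was also run on simulated arrays with noise drawn independently for each array. That simulation could not show the effect of anything that arrays share.

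Gene symbols are those of the platform table, some of them old. Each array is 1 bird, so p-values measure the spread between birds together with that of amplification, labelling and hybridisation. The number of arrays limits the precision. Members and lists were chosen with earlier results of these data known. The share of all tested spots whose lines did not overlap at an age is not given here. Non-overlap therefore describes the birds and is not a test. Named were spots past the adjusted threshold in any test, in each compartment the 4 with the smallest line p and the 2 with the smallest p at each week, and all spots of HSPA5, HSP90B1, CANX, CLU, HSPD1, HSPA8 and HSP90AA1. PDIA3, further spots of named genes, HSPA13, PDIA5 and the single genes of the pathway lists below the threshold were named after their values had been seen. Alternatives were other normalizations, filters, priors and weights, the deposited ratios, a replicate block and leaving out each array.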

Additional observations from a re-analysis of the deposited data

Results flagged for a closer look

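In groups of 4 birds, single values lay far from the other 3 by Dixon's criterion in 6 of 203 groups checked over 34 named spots, where chance gives about 1 in 20. HSPA5 spot 11.9.5 read 0.63 in HG week 3 replicate 3, against 0.33 to 0.34 in the other birds of its group. HSPA2 spot 33.7.9 read 0.73 in LG week 7 replicate 4, against 0.19 to 0.23. SEC31A spot 27.8.6 read 0.20 in LG week 1 replicate 2, against -0.33 to -0.24. CLU spot 44.2.18 read -0.22 in HG week 3 replicate 3, against -0.06 to -0.04. DNAJC11 spot 48.2.17 read -0.061 in LG week 1 replicate 4, against 0.14 to 0.17, and DNAJC22 read 0.13 in LG week 7 replicate 4, against 0.34 to 0.37.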

How the results depend on the processing

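HSPA5 spot 11.9.5, CLU spot 20.8.17 and DNAJB5 spot 20.17.14 kept their direction under every alternative tried, single-bird omissions among them. They passed under every alternative except some of those omissions. Over the omissions the line difference ran from 0.51 to 0.61 for HSPA5 and from 0.51 to 0.60 for CLU. For DNAJB5 it ran from 0.32 to 0.38, and for HSPD1 spot 24.3.15 from -1.21 to -0.93. HSPD1 spot 24.3.15 missed the threshold with median centring (adjusted p = 0.0847), scaling between arrays (0.0573), all spots whatever their flag (0.0606), a two-way model without moderation (0.0759) and the deposited ratios (0.496). At an unadjusted p below 0.05 the member counts were 13 for line, 6, 10, 10 and 9 at weeks 1, 3, 5 and 7, 1 for the interaction and 9 for age. The shares of all spots at that unadjusted threshold are those given with the results. The deposited ratios gave 2 calls at week 7 and 2 for age. Their p-values were adjusted over the spots those ratios cover. The share of all such spots called is not given here, so these 2 counts cannot be set against it. Age had 0 calls with median centring, scaling, all spots, array weights and the two-way model. Median centring gave an ER-side median of 0.11 at week 5 and a cytosolic and mitochondrial median of -0.066 at week 7. Spots on all arrays gave the latter class 0.066 at week 3, and 1 value per gene, an alternative chosen after seeing the data, -0.081 at week 5.

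Leaving out single birds gave 0 to 4 line calls, with 0 without HG week 1 replicate 1 and 1 without HG week 1 replicate 2, and 2 without LG week 1 replicate 2, HG week 3 replicate 4, LG week 3 replicate 1 or 2, HG week 7 replicate 4 or LG week 7 replicate 1. Age had 0 to 1 calls, and the single weeks and the interaction 0. The ER-side median ran from 0.036 to 0.060 over the ages and from 7.5e-05 to 0.045, 0.037 to 0.064, 0.039 to 0.095 and 0.031 to 0.067 at weeks 1, 3, 5 and 7. The cytosolic and mitochondrial median ran from -0.028 to 0.0011 over the ages and from 0.020 to 0.078, -0.020 to 0.011, -0.093 to -0.013 and -0.054 to -0.011 at those weeks.

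Some values near 0 changed sign. COPE spot 48.2.10 read -0.0046 with loess by print block, -0.0091 without background correction and -0.059 with the deposited ratios, which also gave COPG2 0.069, SECISBP2 -0.063 and SPCS2 -0.095. DNAJB2 spot 46.1.15 read -0.024 without background correction, SECISBP2 -0.0096 with array weights, and HSPG spot 18.5.16 -0.23 with all spots. HSPA8 spot 38.9.15 read 0.0040 with scaling, 0.029 with all spots, 0.041 with array weights and 0.056 with the replicate block. Over single-bird omissions the ranges were -0.048 to 0.011 for HSPE1 spot 14.9.6, -0.016 to 0.031 for HSPG spot 18.5.16, -0.077 to 0.26 for HSPA8 spot 26.1.13, -0.067 to 0.021 for HSPA8 spot 38.9.15, -0.0054 to 0.11 for SECISBP2 and -0.014 to 0.040 for COPE spot 48.2.10. The causes were not tested.

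Replicate numbers were not taken as pairing, although deviations of same-numbered birds correlated at -0.10 to 0.44 over 15 pairs, above 0.1 in 12. Of 31 birds, 24 correlated best with their own number. Arrays of replicate 4 held 17505 to 18342 spots not flagged, against 14786 to 17281 in replicate 1. HG at week 1 has no replicate 3. The main model has no term for the number, so whatever arrays of a number share stays in the spread behind its p-values. With the number as a replicate block the member counts were 4 for line, 0 at each week and for the interaction, and 1 for age. The share of all spots called with the block is not given here. The adjusted p of the line difference with the block was 0.00923 for HSPA5 spot 11.9.5 and 0.021 for CLU spot 20.8.17. For DNAJB5 spot 20.17.14 it was 0.00756, and for HSPD1 spot 24.3.15 0.021. Signal limits the dim spots: 35 of the 150 lay under 3 times background.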
